A study of Zea mays with 36 samples.

Results

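AMT1.3 (Zm00001eb247430) is an ammonium transporter gene of maize, and its row was taken by its identifier from a leaf table and a root table of expression values, 1 gene of the 43459 in each table. Ammonium transporters of the AMT family are membrane channels that carry ammonium into plant cells from the soil solution or from the space between cells. Inside the cell, glutamine synthetase joins ammonium to glutamate, and glutamate synthase (GOGAT) passes the nitrogen on. Nitrate reaches the same pathway after nitrate reductase and nitrite reductase have turned it into ammonium, so ammonium and nitrate supply feed a shared set of assimilation enzymes.

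The data were 36 RNA-seq libraries from seedlings of the inbred line B73, 18 of leaf and 18 of root, with 3 biological replicates at each of 6 time points and each replicate pooled from several plants. All plants first grew in hydroponic solution with sufficient nitrate (0 h). They then stood in solution without nitrate salts and were sampled after 0.5, 3 and 24 h. The study's methods name calcium chloride and manganese chloride as the replacement salts. Nitrate was returned at 24 h, and plants were sampled 30 min later (24.5 h) and at the last time point, labelled 48 h. Leaf samples were young, fully developed leaves, and root samples mixed seminal and crown roots, so each is a mixture of cell types. In such bulk tissue, fewer cells of a type and less RNA per cell cannot be told apart. No plants were kept on nitrate alongside, so a difference from 0 h also holds any change with plant age and, at 0.5, 3 and 24.5 h, with the hour of the day, and these cannot be told apart from the change in nitrate. In those methods the solution is Magnavaca's and the treatment is called limiting nitrogen, and the sample titles mark the groups NN, ND and NR. Whether the solutions held ammonium is not given in the sources used here. A loss of ammonium supply along with the nitrate salts therefore cannot be told apart from the loss of nitrate.

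Values are TPM (transcripts per 1000000 transcripts), a level scaled to transcript length and to the total of the library. Every library summed to 1000000 TPM, so sequencing depth is unknown. Each leaf library listed 20367 to 21735 genes at 1 TPM or more, and each root library 23774 to 24773. The photosynthesis gene LHCB5 stood at 482 to 1423 TPM in leaf and at 0 to 17.96 TPM in root, and the C4 enzyme gene PPDK2 at 27.4 to 94.8 TPM in leaf and at 0 to 1.04 TPM in root. PEPC6, a further C4 gene on the marker list, did not separate the tissues, at 34.3 to 99.1 TPM in leaf and 56.1 to 102 TPM in root. Of the root nitrate uptake genes, NRT2.1 reached 2.36 TPM at most in leaf (the first 24.5 h library) and 228 TPM in root, NRT2.2 reached 1.59 TPM in leaf and 184 TPM in root, and NAR2.1 reached 0.461 TPM in leaf and 42.4 TPM in root. 1 root library at 48 h, replicate 2, stood apart from its group, with 217 TPM of NRT2.1 against 0.285 and 1.52 TPM in replicates 1 and 3. The leaf library of the same time and replicate number also stood apart in some genes. It held 14.7 TPM of the nitrate reductase gene NR2, against 0.156 and 0.858 TPM in replicates 1 and 3. It did not stand apart in AMT1.3 (3.604 TPM against 5.08 and 3.04 TPM) or in the nitrite reductase gene NIR2 (11.4 TPM against 3.05 and 15.9 TPM).

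The AMT1.3 gene lies on chromosome 5 from 189353173 to 189354865 in the RefSeq annotation of the B73 NAM-5.0 assembly, where it spans 1693 bases and is listed as LOC100191554. It was matched through an older identifier, GRMZM2G028736, which the study's table of promoter clones pairs with it. Among the 7 ammonium transporter genes considered here, 6 could be placed this way, and AMT1.3 shares chromosome 5 only with AMT9, which starts at 174873141. The study cloned a stretch upstream of AMT1.3 as bait to find transcription factors that bind it. The clone is listed with a length of 1491 bases, of which the 399 bases at one end are held here. The first 300 are shown because 3 of the 13 factors linked to this promoter belong to the bHLH family, whose members commonly bind the word CANNTG, and capitals mark each match to that word. Neither strand nor genome position of the clone was determined, since no genome was used.

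AMT1.3 promoter clone, first 300 bases as listed: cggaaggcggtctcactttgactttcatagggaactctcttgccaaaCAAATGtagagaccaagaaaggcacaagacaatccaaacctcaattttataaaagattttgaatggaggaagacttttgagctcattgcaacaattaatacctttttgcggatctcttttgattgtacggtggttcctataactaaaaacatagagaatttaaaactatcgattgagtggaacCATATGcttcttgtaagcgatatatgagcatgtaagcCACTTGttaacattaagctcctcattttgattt

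CANNTG reads the same on both strands and matched 3 times, as CAAATG from base 48, CATATG from base 231 and CACTTG from base 268. It was present in the first 300 bases of 61 of the 95 promoter clones with that much sequence (64.2%), so its presence does not set AMT1.3 apart. GATA, searched on both strands, matched 2 times and was found in 71.6% of the clones. ACGT, the core of many bZIP sites, and GCCGCC, bound by many ethylene response factors, did not match in this window and were found in 45.3% and 22.1% of the clones. None of these words overlapped another, and a match is a description of the letters and not a bound site.

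In leaf, AMT1.3 was highest before nitrate was withdrawn. At 0 h the 3 leaf libraries held 7.33, 9.66 and 7.42 TPM. At 0.5 h they held 2.18, 2.60 and 3.38 TPM, and at 3 h 0.815, 0.652 and 0.833 TPM. Every library at 3 h lay below every library at 0.5 h, and every library at 0.5 h lay below every library at 0 h. The gene then stood at 3.501, 2.02 and 2.04 TPM at 24 h, at 2.06, 1.295 and 3.48 TPM 30 min after nitrate was returned, and at 5.08, 3.604 and 3.04 TPM at 48 h. All 9 of these later libraries lay above all 3 libraries at 3 h and below all 3 at 0 h. As group means with the SD over 3 libraries, the levels in TPM were 8.14 ± 1.32 (0 h), 2.72 ± 0.608 (0.5 h), 0.766 ± 0.0998 (3 h), 2.52 ± 0.850 (24 h), 2.28 ± 1.11 (24.5 h) and 3.91 ± 1.05 (48 h). Ordered from high to low, the times ran 0, 48, 0.5, 24, 24.5 and 3 h. Only the first and the last place in this order were separated from their neighbours, because the libraries of 48, 0.5, 24 and 24.5 h overlapped from each place to the next.

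In root, AMT1.3 had higher TPM values throughout, on a scale relative to each tissue's own transcript pool, and followed another course. At 0 h the root libraries held 33.3, 35.6 and 34.2 TPM, at 0.5 h 20.2, 18.4 and 21.0 TPM, and at 3 h 26.9, 32.2 and 26.5 TPM. Those 3 groups did not overlap, and the libraries at 3 h lay between the libraries at 0.5 h and those at 0 h. The lowest values came at 24 h, with 8.45, 18.4 and 9.36 TPM, and at 24.5 h, with 15.9, 9.64 and 17.6 TPM, which overlapped each other. At 48 h the root held 43.0, 42.0 and 21.2 TPM, so that 2 libraries lay above all libraries at 0 h and the other one lay near the level of 0.5 h. The group means in TPM, with the SD over 3 libraries, were 34.4 ± 1.17 (0 h), 19.9 ± 1.34 (0.5 h), 28.5 ± 3.18 (3 h), 12.1 ± 5.50 (24 h), 14.4 ± 4.21 (24.5 h) and 35.4 ± 12.3 (48 h). From high to low the root times ran 48, 0, 3, 0.5, 24.5 and 24 h, and the neighbours that overlapped were 48 and 0 h at the top and 24.5 and 24 h at the bottom.

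**Figure D1:**
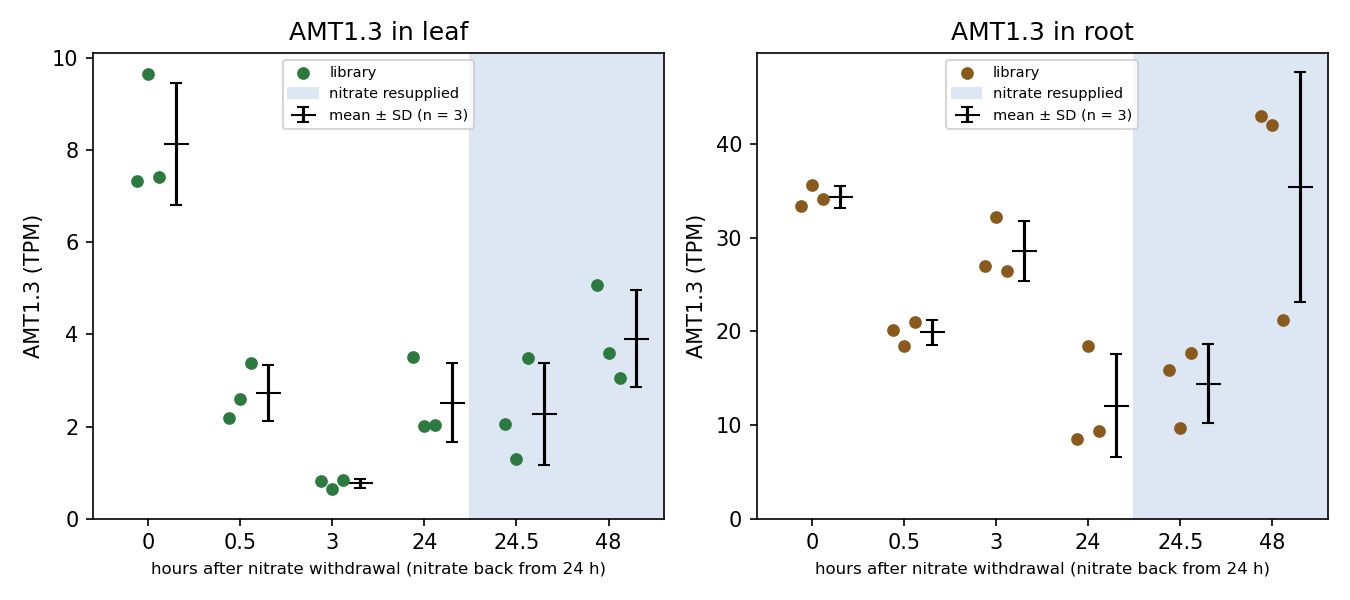
AMT1.3 level in TPM in each library (points) with the group mean and SD of 3 libraries (bars) at 6 time points in leaf (left) and root (right), with the time after nitrate return shaded. The leaf libraries at 3 h (0.652 to 0.833 TPM) lie below all other leaf libraries, whereas in root the libraries at 24 h (8.45 to 18.4 TPM) and 24.5 h (9.64 to 17.6 TPM) are the low ones.

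Root libraries spread widely from 24 h onward. On the log2(TPM + 1) scale, the SD of AMT1.3 among root replicates was 0.0474 (0 h), 0.0938 (0.5 h) and 0.151 (3 h) early on and 0.565 (24 h), 0.432 (24.5 h) and 0.560 (48 h) later, while the median SD over all root genes tested stayed between 0.164 and 0.209. The high library at 24 h, replicate 2, also held the most NRT2.1 of its group, 228 TPM against 76.3 and 47.3 TPM. By contrast, the root library at 48 h that stood apart by its NRT2.1 level did not stand apart in AMT1.3, where it held 42.0 TPM and replicate 3 was the low one.

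The withdrawal response of leaf AMT1.3 was tested with limma, a linear model fitted to log2(TPM + 1) over the 23268 genes that reached 1 TPM in at least 3 leaf libraries. A gene was called when its adjusted p-value was under 0.05 and its log2 fold change exceeded 1 in either direction. After 0.5 h without nitrate, AMT1.3 fell to 33.4% of its mean at 0 h, with a log2 fold change of -1.30 (95% interval -1.81 to -0.79, adjusted p = 0.00553, limma), and 0.769% of leaf genes were called lower in that comparison. After 3 h it fell to 9.42% of the 0 h mean, with a log2 fold change of -2.36 (-2.87 to -1.85, adjusted p = 3.05e-06, limma). That placed AMT1.3 among the lowest 0.903% of fold changes at a time when 5.17% of leaf genes were called lower and 8.55% higher. Because the level at 3 h was under 1 TPM, the added 1 TPM understates the change: the ratio of the mean TPM at 0 h to that at 3 h was 10.6, and the log2 fold change was -3.24 with a pseudocount of 0.1 and -1.18 with one of 5. With the larger pseudocount the leaf changes of -0.77 (0.5 h), -0.81 (24 h) and -0.86 (24.5 h) no longer passed the fold limit, although their adjusted p-values stayed under 0.05.

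Leaf AMT1.3 was still lower at 24 h than before withdrawal, with a log2 fold change of -1.39 (-1.90 to -0.88, adjusted p = 0.00255, limma, 2.06% of genes called lower). Its mean TPM at 24 h was 3.29 times that at 3 h. The log2 fold change of 0.97 (0.46 to 1.48, adjusted p = 0.00882, limma) missed the fold limit, and it passed with a pseudocount of 0.1 (1.56), after median-of-ratios scaling (1.01) and after quantile normalization (1.13), and also without leaf 24 h replicate 2 (1.07) or 3 (1.06).

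The return of nitrate was not followed by a detectable quick change in leaf. At 24.5 h against 24 h the log2 fold change was -0.13 (-0.64 to 0.38, adjusted p = 0.869, limma), in a comparison in which 6 of 23268 genes (0.0258%) were called in either direction. At 48 h against 24 h it was 0.49 (-0.03 to 1.00, adjusted p = 0.293, limma), with overlapping libraries. Leaf AMT1.3 stayed below its starting level in all later libraries: at 24.5 h it was called lower than at 0 h (-1.52, -2.03 to -1.01, adjusted p = 0.00120, limma, 2.15% of genes called lower), and at 48 h it stood at 48.1% of the 0 h mean with a log2 fold change of -0.91 (-1.42 to -0.40, adjusted p = 0.0141, limma), short of the fold limit. That last value turned into a call without leaf 48 h replicate 1 (-1.07), with a pseudocount of 0.1 (-1.06) and after median-of-ratios scaling (-1.14). Among the leaf genes tested, the middle log2 fold change lay at 0.11 to 0.25 from 3 h on, and relative to this median AMT1.3 stood at -2.56 (3 h), -1.51 (24 h), -1.75 (24.5 h) and -1.15 (48 h). Leaf markers moved in the same direction at some of these times: of LHCB5, PPDK2 and PEPC6, LHCB5 was called lower at 3 h (-1.06), PEPC6 at 24 h (-1.18), and LHCB5 (-1.09) and PPDK2 (-1.48) at 48 h, where 1.98% of all leaf genes were called lower. None of the 3 was called at 0.5 or 24.5 h, although at 24.5 h all 3 had an unadjusted limma p under 0.05 (list median -0.86). Their part in the AMT1.3 values was not tested. These comparisons share the 0 h libraries, so they are not independent of each other.

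In root the changes at 0.5 and 3 h did not pass the test, and those at 24 and 24.5 h did. The fit shared its estimate of the spread over all root times, so each of these comparisons had a standard error of 0.278. The replicate SD given above was far smaller at 0 and 0.5 h than at 24 and 24.5 h. The p-value at 0.5 h therefore also carries the wider later spread, and those at 24 and 24.5 h carry the narrower early spread. The log2 fold change at 0.5 h was -0.76 (-1.35 to -0.17, adjusted p = 0.0789, limma over 26245 root genes), although the libraries did not overlap those at 0 h. At 3 h it was -0.26 (-0.86 to 0.33, adjusted p = 0.567, limma). By 24 h root AMT1.3 fell to 35.1% of its mean at 0 h, with a log2 fold change of -1.51 (-2.10 to -0.92, adjusted p = 0.00199, limma), among the 2.58% of root genes called lower. It also fell between 3 h and 24 h, by a log2 fold change of -1.25 (-1.84 to -0.66, adjusted p = 0.0111, limma, 0.983% of genes called lower). Without root 24 h replicate 1 (-1.05) or root 3 h replicate 2 (-1.16) this step lost its call, with limma adjusted p of 0.0580 and 0.0540.

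Nitrate return was followed by no detectable change of root AMT1.3 in the first 30 min (0.27, -0.32 to 0.86, adjusted p = 0.535, limma, 3.54% of genes called in either direction), and the gene was still called lower than at 0 h (-1.24, -1.83 to -0.65, adjusted p = 0.00589, limma, 2.21% of genes called lower). Without root 24.5 h replicate 2 that second change was -0.99 and missed the fold limit. At 48 h root AMT1.3 rose above 24 h, to 2.93 times its mean TPM, with a log2 fold change of 1.49 (0.90 to 2.08, adjusted p = 0.0118, limma), in a comparison in which 0.625% of genes were called higher. The rise was called without replicate 2 of the 48 h group (1.34, adjusted p = 0.0114, limma), the library that stood apart, and lost its call when only the 6 libraries compared were fitted (adjusted p = 0.150, limma) or without root 24 h replicate 1 (1.29, adjusted p = 0.0568, limma). Against 0 h, the 48 h root had a log2 fold change of -0.03 (-0.62 to 0.57, adjusted p = 0.964, limma), and the groups overlapped.

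The first 30 min after nitrate return were also set against the first 30 min after its withdrawal. In leaf the change after return minus the change after withdrawal was 1.17 on the log2 scale (0.45 to 1.89, adjusted p = 0.130, limma), and in root it was 1.04 (0.20 to 1.87, adjusted p = 0.0858, limma), so neither was called, while 0.413% of leaf genes and 4.82% of root genes were. The root value passed without root 24 h replicate 2 (1.36, adjusted p = 0.0265, limma) or root 24.5 h replicate 2 (1.28, adjusted p = 0.0462, limma).

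The tissues differed in when AMT1.3 was low. Both tables were filtered alike and 21438 genes that passed in both were fitted together to test whether the change from 0 h differed between tissues. At 3 h the leaf change minus the root change was -2.10 (-2.87 to -1.32, adjusted p = 0.000209, limma), against 3.15% of genes called in that direction, and with a pseudocount of 5 it was -0.95 and missed the fold limit. At the other times the difference was -0.54 (0.5 h), 0.12 (24 h), -0.28 (24.5 h) and -0.88 (48 h), with limma adjusted p of 0.503, 0.879, 0.662 and 0.120. None was called, where 1.25%, 0.975%, 5.59% and 4.63% of genes were called in either direction. Without root 48 h replicate 3 the difference at 48 h was -1.21 and was called (adjusted p = 0.0306, limma). Every leaf library at 24 h lay above all leaf libraries of 3 h, and every root library at 24 h lay below all root libraries of 3 h. A contrast added after these values were seen gave a difference of 2.22 between leaf and root (1.45 to 2.99, adjusted p = 0.000286, limma, 2.23% of genes called in that direction).

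**Figure D2:**
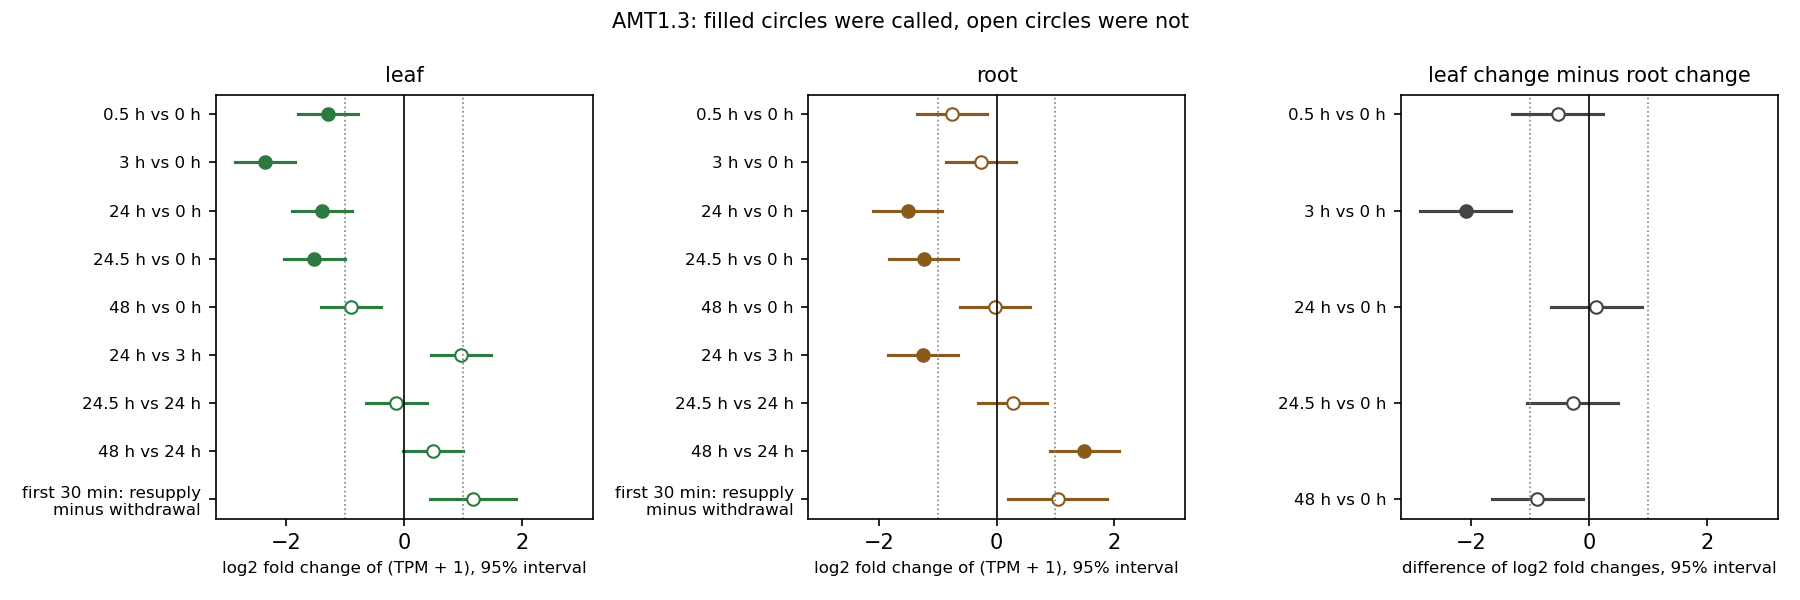
Log2 fold changes of AMT1.3 (circles) with 95% intervals (lines) from limma for 9 comparisons in leaf (left) and root (middle), and the leaf change minus the root change (right), with dotted lines at the fold limit and filled circles for called values. In leaf the change at 3 h (-2.36) is the most negative, in root that at 24 h (-1.51), and of the 5 tissue differences from 0 h only that at 3 h (-2.10) is filled.

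Leaf and root levels are given side by side without a test, since TPM is relative to each tissue's own transcript pool. As ratios of the mean TPM given above, the root level was 4.22 times the leaf level (0 h), then 7.31 times (0.5 h), 37.2 times (3 h), 4.79 times (24 h), 6.31 times (24.5 h) and 9.05 times (48 h). Ranked among the genes tested in its tissue, AMT1.3 lay above 46.0% of leaf genes at 0 h and above 6.24% at 3 h, and in root above 77.2% of genes at 0 h and 53.4% at 24 h.

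Of the other 6 genes annotated as ammonium transporters, AMT1 (Zm00001eb426350) belongs to the same AMT1 type. In leaf at 3 h AMT1 stood at 33.6, 24.6 and 37.6 TPM, against 7.83, 10.5 and 12.0 TPM at 0 h. The groups did not overlap, and AMT1 rose with a log2 fold change of 1.56 (0.80 to 2.33, adjusted p = 0.00334, limma) at the time when AMT1.3 was at its lowest. By 24 h AMT1 had 17.2, 13.9 and 12.0 TPM and was called lower than at 3 h (-1.09, adjusted p = 0.0391, limma, 6.06% of genes called lower). With single libraries left out, the count of the 6 genes called lower in this comparison was 0 or 1.

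AMT2.3 (Zm00001eb063910), of the AMT2 type, shared the early leaf fall. It held 2.69, 1.70 and 1.42 TPM at 0.5 h and 1.19, 1.66 and 0.515 TPM at 3 h, against 6.30, 6.85 and 6.43 TPM at 0 h. Both times were called lower (log2 fold changes of -1.38 and -1.87, adjusted p of 0.0261 and 0.000603 in limma), and no library at these times reached the level of 0 h. Unlike AMT1.3, the gene stood at 10.6, 5.05 and 9.11 TPM at 24 h, called higher than at 3 h (2.11, adjusted p = 0.000432, limma, 3.21% of genes called higher), with a log2 fold change of 0.25 (-0.48 to 0.98, adjusted p = 0.665, limma) against 0 h. With single libraries left out, the count of the 6 genes called lower than at 0 h was 0 or 1 at 0.5 h and stayed at 1 at 3 h.

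The remaining 4 members, AMT2.4, AMT9 and the pair AMF1-1 and AMF1-2, named for the ammonium facilitators of the major facilitator superfamily known from yeast and soybean, were called in no comparison of times in leaf. Of all leaf genes, 2.56% (0.5 h), 13.7% (3 h), 3.48% (24 h), 4.97% (24.5 h) and 5.48% (48 h) were called in either direction against 0 h, 9.27% between 3 and 24 h and 0.331% between 24 and 48 h. The most expressed of them was AMF1-2, whose leaf libraries held 59.3 to 64.0 TPM at 3 h against 35.2 to 37.0 TPM at 0 h and whose change of 0.77 (0.43 to 1.11, adjusted p = 0.00165, limma) stayed under the fold limit. Over these 6 genes the median leaf log2 fold change at 3 h was 0.72, beside a median of 0.19 over all leaf genes tested, with 1 member called higher and 1 lower. Of the 6, 5 had an unadjusted limma p under 0.05 in that comparison. Under the processing alternatives 1 to 3 were called higher and 0 to 1 lower. In root none of the 6 was called in any of the 8 comparisons of times, where 2.91% (0.5 h), 3.72% (3 h), 3.76% (24 h), 5.19% (24.5 h) and 3.45% (48 h) of all root genes were called in either direction against 0 h, 1.83% between 3 and 24 h and 0.987% between 24 and 48 h. At an unadjusted p under 0.05 in limma, 5 of these 6 root genes differed in at least 1 of the 8 comparisons. The root member nearest to the course of AMT1.3 was AMT1, at 22.1, 36.5 and 18.8 TPM at 24 h against 33.6, 42.5 and 38.9 TPM at 0 h (log2 fold change -0.60, adjusted p = 0.0324, limma), and as with AMT1.3 its high library at 24 h was replicate 2.

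Between tissues, 4 of these 6 genes had changes at 3 h that differed between leaf and root, with 10.4% of all genes called in either direction. The leaf change minus the root change was -2.13 for AMT2.3 and -1.06 for AMT2.4, both in the direction of AMT1.3, and 1.44 for AMT1 and 1.56 for AMT9 in the other direction (limma adjusted p of 0.00603, 0.0315, 0.0157 and 0.00798), where 3.15% of genes were called lower and 7.23% higher. Under the processing alternatives 0 to 2 of the 6 were called lower and 1 to 2 higher. With single libraries left out, 1 to 2 were called lower and 2 higher. AMT2.4 in root held 15.2, 17.6 and 12.3 TPM at 3 h against 6.85, 7.98 and 6.36 TPM at 0 h, and AMT9 in leaf held 9.19, 7.88 and 6.99 TPM at 3 h against 3.14, 3.99 and 3.40 TPM at 0 h. In leaf AMT2.4 stood at 93.3% of its 0 h mean at 3 h and in root at 213%. Its difference thus lay mainly in the root rise and not in a leaf fall like that of AMT1.3.

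TPM values of the 7 genes can be added, and AMT1.3 made up a changing share of the sum. In leaf its share in percent, with the SD over 3 libraries, was 9.30 ± 1.33 (0 h), 2.86 ± 0.525 (0.5 h), 0.546 ± 0.0533 (3 h), 2.37 ± 0.444 (24 h), 2.29 ± 1.68 (24.5 h) and 3.62 ± 1.99 (48 h). The leaf sum itself was 140.03 ± 7.12 TPM at 3 h, against 87.4 ± 3.13 TPM at 0 h. The 7 genes together thus stood higher when AMT1.3 was lowest. They are not a single family, since the sum joins the AMT genes with the pair AMF1-1 and AMF1-2. In leaf at 3 h this pair held means of 33.9 and 62.1 TPM (163% and 173% of their 0 h means). AMT1 held 31.9 TPM (316%). Shares among the AMT genes alone were not computed. In root the share in percent was 23.4 ± 0.722 (0 h), 15.5 ± 1.08 (0.5 h), 16.4 ± 0.938 (3 h), 9.77 ± 3.46 (24 h), 9.33 ± 2.44 (24.5 h) and 21.1 ± 5.07 (48 h). All 7 genes summed to 120.9 ± 11.5 TPM in root at 24 h, against 147 ± 8.35 TPM at 0 h, while the other 6 alone summed to 108.8 ± 6.195 TPM at 24 h, against 112 ± 7.31 TPM at 0 h.

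**Figure D3:**
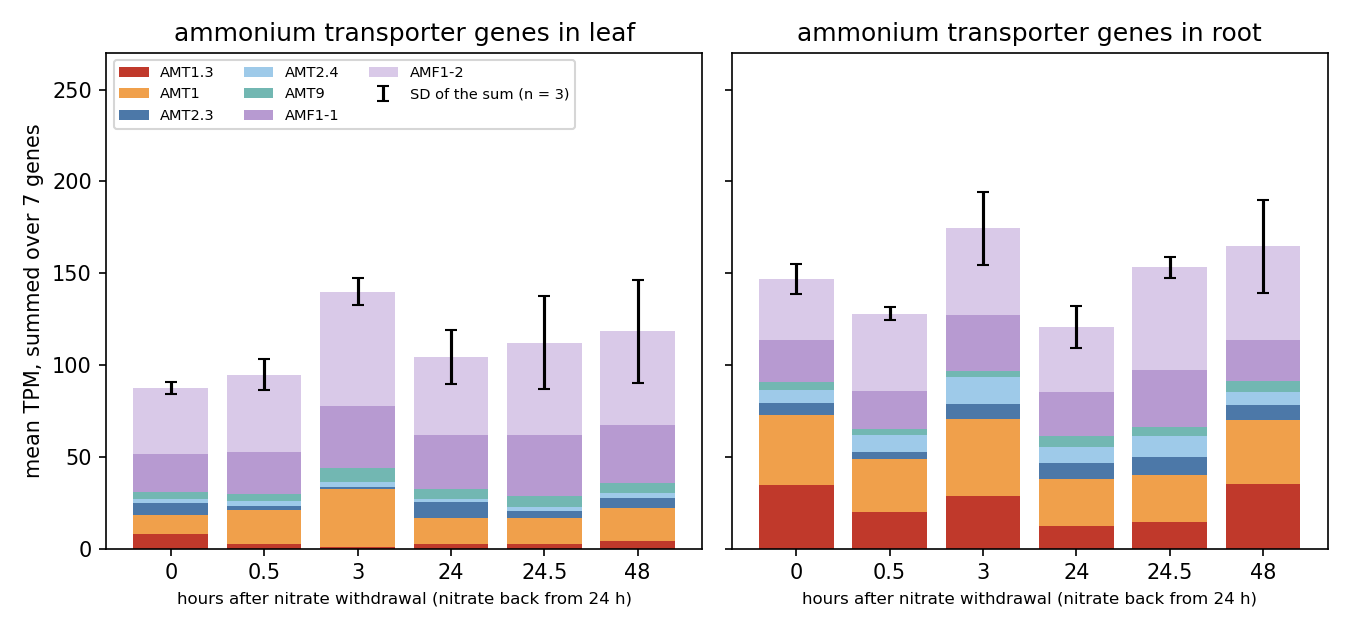
Mean TPM of the 7 ammonium transporter genes, stacked, at 6 time points in leaf (left) and root (right), with the SD of the sum over 3 libraries as error bars. The AMT1.3 block at the bottom shrinks to 0.766 TPM in leaf at 3 h while AMT1 grows, and in root it is smallest at 24 h (12.1 TPM).

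The assimilation enzymes act downstream of ammonium uptake. Of 11 assimilation genes tested in leaf, GDH2, a glutamate dehydrogenase gene, was called higher at 3 h (24.8, 28.3 and 25.2 TPM at 3 h against 11.04, 8.00 and 6.10 TPM at 0 h, log2 fold change 1.56, adjusted p = 0.000418, limma), where 8.55% of all leaf genes were called higher. It was called lower at 24 h than at 3 h (-1.46, adjusted p = 0.00137, limma), where 6.06% of leaf genes were. No other member was called in any comparison of leaf times, although 8 of the 11, GDH2 among them, had an unadjusted limma p under 0.05 in at least 1. In root, 4 of 10 tested members were called lower at 24 h and none higher, beside 2.58% of all root genes called lower, and the list median was -0.63 beside -0.08 for all genes.

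The 4 root members called lower at 24 h were GS1-5, GOGAT2, GDH2 and ASN3. GS1-5, a cytosolic glutamine synthetase gene, had 19.5, 26.2 and 14.6 TPM at 24 h against 50.6, 86.3 and 74.4 TPM at 0 h (log2 fold change -1.76, adjusted p = 0.00243, limma). GOGAT2, a glutamate synthase gene, had 18.9, 31.0 and 24.1 TPM at 24 h against 52.8, 71.0 and 73.7 TPM at 0 h (-1.39, adjusted p = 0.00204, limma). In neither gene did the groups overlap. Glutamate dehydrogenase can release ammonium from glutamate, and asparagine synthetase stores nitrogen as asparagine. GDH2 had 28.8, 47.1 and 33.8 TPM at 24 h against 136, 90.2 and 111 TPM at 0 h (-1.61, adjusted p = 0.00626, limma), and ASN3, of the asparagine synthetases, had 6.58, 10.6 and 3.12 TPM at 24 h against 19.7, 14.0 and 27.5 TPM at 0 h (-1.54, adjusted p = 0.0313, limma). GDH2 differed from AMT1.3 early on, since it rose in root at 0.5 h, to 305, 358 and 457 TPM (log2 fold change 1.72, adjusted p = 0.00551, limma, 1.77% of genes called higher).

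At 48 h against 24 h, 4 of the 10 root assimilation genes were called higher and none lower, beside 0.625% of all root genes called higher. GS1-5 stood at 93.6, 48.1 and 82.1 TPM at 48 h (log2 fold change 1.82, adjusted p = 0.0111, limma), GOGAT2 at 101, 67.4 and 113 TPM (1.88, adjusted p = 0.00445, limma), the glutamate synthase gene GOGAT3 at 98.8, 75.7 and 113 TPM (1.26, adjusted p = 0.0111, limma) and ASN3 at 44.4, 14.7 and 26.7 TPM (1.92, adjusted p = 0.0315, limma). The groups of 24 h and 48 h did not overlap in any of these. The count was 3 to 5 when 1 library was left out, 5 without root 48 h replicate 2, and 0 when only the 6 libraries compared were fitted. Over all root genes, the count called higher also fell as low as 0 under the processing alternatives, against 164 in the main fit. The other cytosolic glutamine synthetase genes were not called at 24 h. GS1-1 had 558, 895 and 523 TPM at 24 h against 547, 734 and 727 TPM at 0 h, and GS1-3 had 512, 597 and 549 TPM at 24 h against 264, 299.6 and 303 TPM at 0 h. Its change of 0.93 (0.38 to 1.48, adjusted p = 0.0198, limma) stayed under the fold limit.

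**Figure D4:**
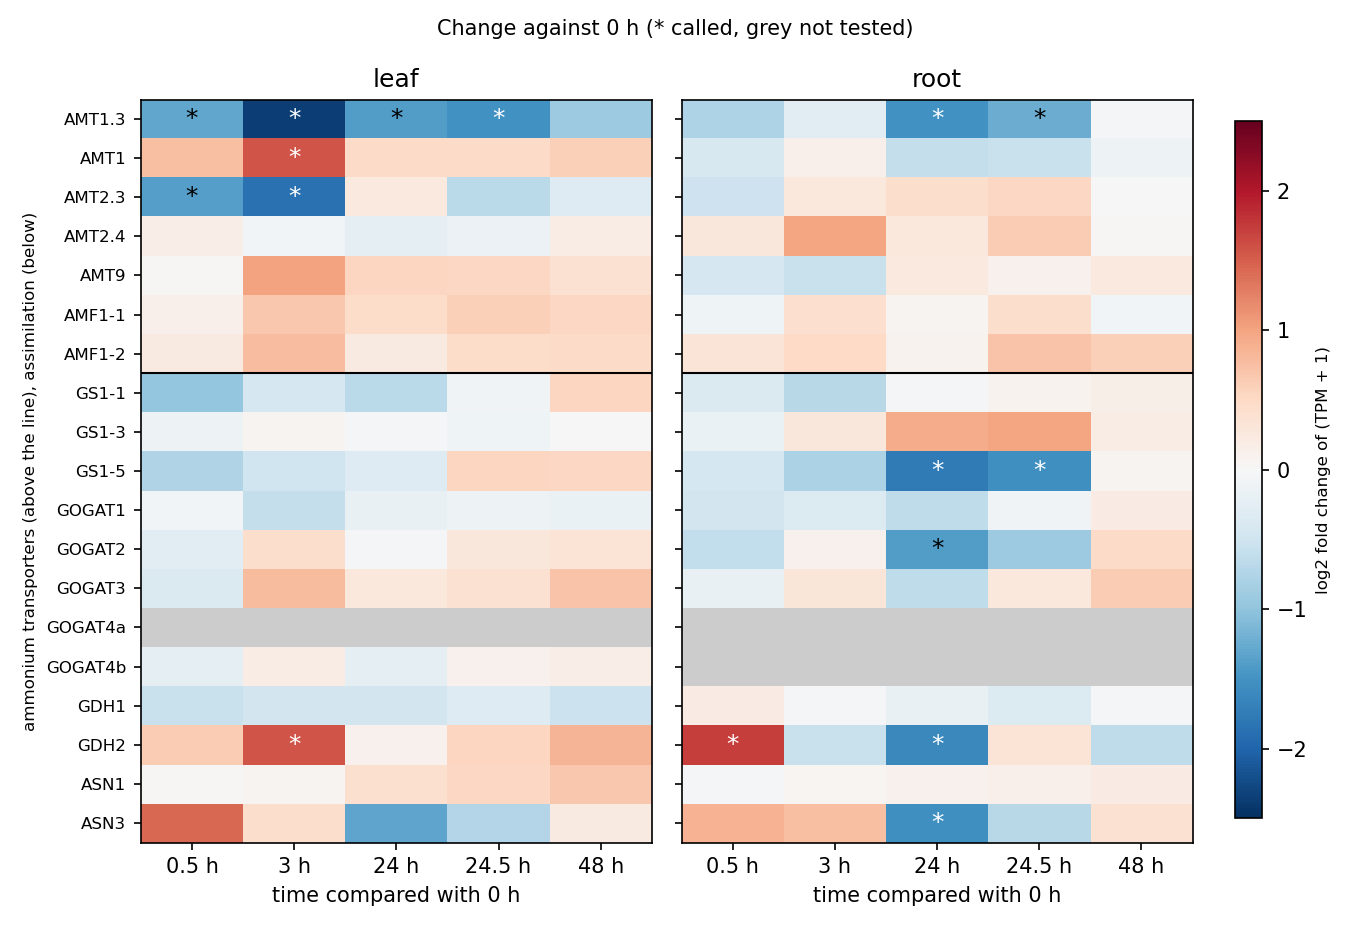
Log2 fold change against 0 h (colour) of the 7 ammonium transporter genes and 12 assimilation genes at 5 later times in leaf (left) and root (right), with an asterisk for called values and grey for genes not tested. In leaf AMT1.3 is called at 4 times and AMT2.3 at 2, and in root AMT1.3 at 24 h (-1.51) stands with GS1-5 (-1.76), GOGAT2 (-1.39), GDH2 (-1.61) and ASN3 (-1.54).

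The likeness of other genes to AMT1.3 was measured as Pearson's r of log2(TPM + 1) over the 18 libraries of a tissue. These libraries share time points, and r is a description of which genes ran together in these samples. In root, the gene with the highest r among all 26244 others was GOGAT2 (r = 0.852, and 0.812 to 0.937 when any 1 library was left out), followed among the 337 genes of the study's nitrogen network tested in root by GS1-5 (0.797) and EREB17, an ethylene response factor gene (0.723). When each library was expressed as its deviation from its time point mean, r was 0.377 for GOGAT2, 0.345 for GS1-5 and 0.319 for EREB17, so for these genes the likeness was weaker among libraries of the same time. AMT1 lay between GOGAT2 and GS1-5 in root (0.811), while the median r of the other 6 ammonium transporters was -0.07. Over the deviations r in root was 0.582 for AMT1 and 0.838 for AMT2.4, whose r over the libraries was 0.016. For the rest of these transporters it ran from -0.007 (AMF1-1) to 0.202 (AMF1-2). Among the nitrate transporters tested in root it ran from -0.308 (NPF4.9) to 0.830 (NAR2.1). In leaf the median r of these 6 genes was -0.62, with 2 positive and 4 negative, beside a median of -0.18 over all leaf genes tested. The network genes that ran most against AMT1.3 in root were FHA15 (-0.713), EREB20 (-0.619) and MYB66 (-0.560), of which EREB20 and MYB66 averaged 4.17 and 3.86 TPM at 24 h, against 1.58 and 2.21 TPM at 0 h. Over the deviations r was -0.681 for FHA15, -0.061 for EREB20 and -0.145 for MYB66.

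In leaf the closest gene of 23267 was Zm00001eb077130, which the tables used here do not name, with r = 0.958 (0.947 to 0.966 when any 1 library was left out). It held 3.85, 3.85 and 5.67 TPM at 3 h against 56.7, 104 and 55.6 TPM at 0 h, and 43.4, 17.1 and 18.8 TPM at 24 h. Even among the deviations from the time point means r was 0.875, and the library that was high in AMT1.3 at 0 h (replicate 2), at 24 h (replicate 1) and at 24.5 h (replicate 3) was also high in this gene. In root the same gene had far higher TPM values, at 714, 639 and 814 TPM at 0 h.

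Among 290 network genes tested in leaf, the closest were C3H11, a zinc finger factor gene (0.855), bZIP93 (0.827) and EREB17 (0.822), which was also among the 3 closest in root. Over deviations from the time point means, r was 0.084 for C3H11, 0.38 for bZIP93 and 0.44 for EREB17. The mean TPM of EREB17 in leaf was 189 (0 h), 108.03 (3 h) and 148 (24 h), and in root it was 330.4 (0 h), 283 (3 h) and 217 (24 h). The genes that ran most against AMT1.3 in leaf were TCP20 (-0.897), whose Arabidopsis counterpart takes part in nitrate signalling, MTERF4 (-0.851) and Orphan90 (-0.835), and over the deviations r was -0.621 for TCP20, -0.290 for MTERF4 and -0.200 for Orphan90. TCP20 stood at 26.3, 23.3 and 26.7 TPM in leaf at 3 h against 10.99, 6.48 and 8.10 TPM at 0 h, without overlap. Orphan90 stood at 22.7, 25.97 and 21.96 TPM at 3 h against 0.659, 1.05 and 0.987 TPM at 0 h.

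**Figure D5:**
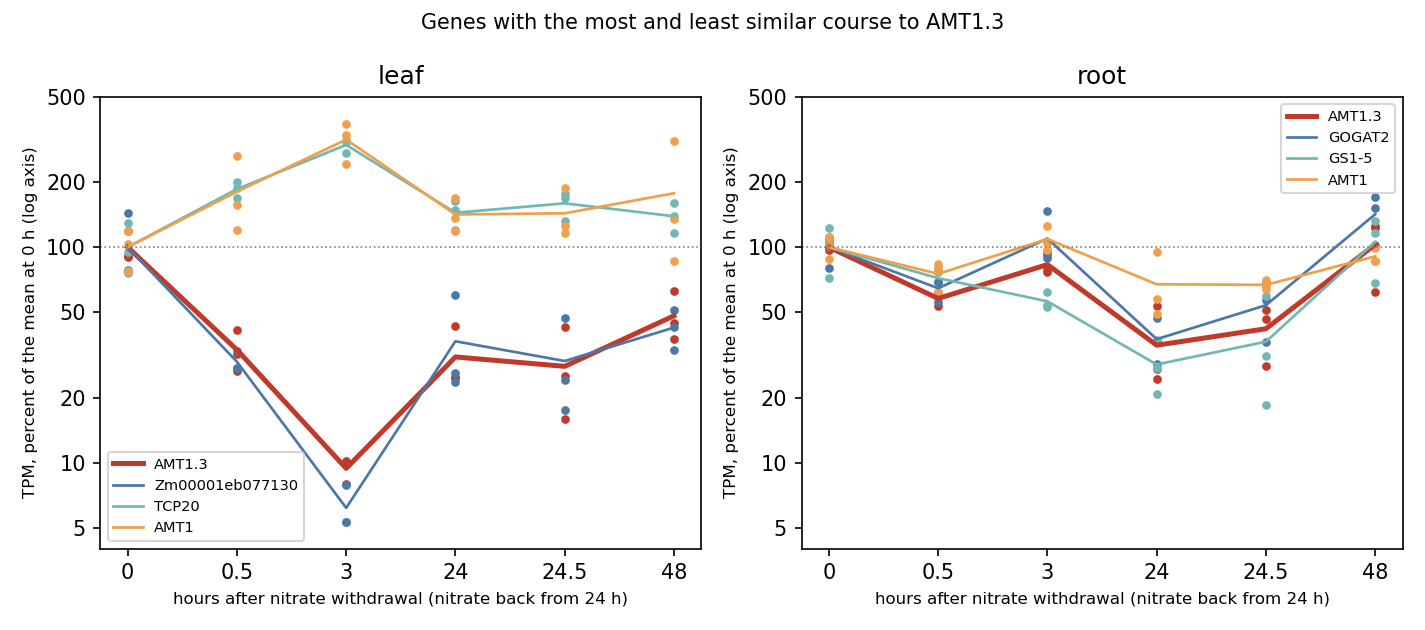
Levels of AMT1.3 and of genes with similar or opposite courses as a percent of their own mean at 0 h (log axis), with lines for the means and points for the 3 libraries of each time, in leaf (left) and root (right). In leaf Zm00001eb077130 follows AMT1.3 down at 3 h while TCP20 and AMT1 stand above their 0 h means, and in root GOGAT2 and GS1-5 are low at 24 h together with AMT1.3.

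The study's network links 13 transcription factors to the AMT1.3 promoter, and their transcripts showed no common course with AMT1.3. Of 10 factors tested in leaf, r with AMT1.3 was positive for 5 and negative for 5 (median -0.05, range -0.652 to 0.695), and of 12 tested in root it was positive for 7 and negative for 5 (median 0.05, range -0.318 to 0.505). At 3 h in leaf 1 factor was called lower and 1 higher, where 5.17% of all genes were called lower and 8.55% higher. EREB205, an ethylene response factor gene, was the lower one, with 12.6, 14.3 and 10.9 TPM at 3 h against 42.5, 40.5 and 34.5 TPM at 0 h (log2 fold change -1.56, adjusted p = 0.000131, limma), and it stood at 29.8, 29.7 and 34.3 TPM at 24 h, called higher than at 3 h (1.25, adjusted p = 0.00159, limma). C3H38, a zinc finger factor gene, was the higher one, with 2.61, 3.54 and 5.00 TPM at 3 h against 1.34, 1.18 and 0.786 TPM at 0 h (1.14, adjusted p = 0.000923, limma).

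In root the calls of these factors fell at other times than those of AMT1.3 or shared only some of them. EREB205 was called lower in root at 0.5 h (16.1, 21.9 and 22.5 TPM at 0.5 h against 49.98, 47.8 and 38.5 TPM at 0 h, log2 fold change -1.14, adjusted p = 0.00260, limma, 1.14% of genes called lower) and at 3 h (-1.36, adjusted p = 0.000620, limma), when AMT1.3 was not called. At 24 h, the low point of AMT1.3, EREB205 stood at 27.4, 22.4 and 20.5 TPM with a log2 fold change of -0.93 (adjusted p = 0.00673, limma), short of the fold limit, and no factor of the 12 was called, against 3.76% of all root genes in either direction, while 5 of the 12 had an unadjusted limma p under 0.05. It was called lower again at 24.5 h (-1.77, adjusted p = 0.000116, limma) and at 48 h (-1.09, adjusted p = 0.00350, limma, 2.42% of genes called lower), while AMT1.3 at 48 h was not called against 0 h. MYB50 was called lower in root at 24.5 h (8.02, 7.20 and 7.24 TPM at 24.5 h against 19.7, 16.4 and 16.7 TPM at 0 h, -1.13, adjusted p = 0.000194, limma) and at 48 h (-1.10, adjusted p = 0.000511, limma). bZIP18, a basic leucine zipper factor gene, had an r of -0.276 in leaf and 0.0350 in root and was called in no comparison of times, while its change at 0.5 h differed between leaf and root (leaf minus root -1.20, adjusted p = 0.0239, limma, 1.25% of genes called in either direction).

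Genes of nitrate uptake and reduction were set beside AMT1.3 by counts. In leaf at 3 h, 4 of 7 tested nitrate reduction genes and 2 of 5 tested nitrate transporters were called lower and none higher, beside 5.17% of all leaf genes called lower and 8.55% higher, and the list medians were -1.24 and -0.63 beside 0.19 for all genes. In leaf at 24 h against 0 h, none of the 7 nitrate reduction genes was called in either direction by limma (5 of the 7 had an unadjusted p under 0.05, list median 0.33, beside 0.11 for all genes) and 1 of 5 nitrate transporters was called lower, beside 2.06% of all leaf genes, while AMT1.3 was called lower (-1.39). The list median hides opposite directions, 4 positive and 3 negative. NR1, NIR1 and UPM1 stood at 55.5%, 49.7% and 46.3% of their 0 h means. NR2, UPM2, RFNR and NIR2 stood at 448%, 164%, 153% and 128%. Between 3 h and 24 h in leaf, 6 of the 7 nitrate reduction genes and 1 of the 5 transporters were called higher, beside 3.21% of all leaf genes, and AMT1.3 was not called (0.97). In root at 3 h, 7 of 8 nitrate reduction genes were called lower, where 2.60% of all root genes were, although AMT1.3 was not (-0.26). At 24.5 h against 24 h in root, 5 of these 8 genes were called higher, beside 2.90% of all root genes, and AMT1.3 had a value of 0.27 and was not called. At 24 h against 0 h in root, 3 of 10 nitrate transporters were called higher and 1 lower, beside 1.19% and 2.58% of all genes, while AMT1.3 was called lower.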

How the data were processed

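Per the submitters' processing notes and the study's methods, the authors aligned reads with STAR to the B73 version 5 genome and estimated expression with StringTie, and they deposited 1 table of TPM values per tissue. The notes also name Trimmomatic, whereas the methods state that maize reads were not trimmed. No count table was used here. TPM values are relative to each library's total, so depth, counting intervals and detection limits cannot be given. All 36 columns matched a sample by its title and 0 columns were left unused. The samples' labels and the methods differ on plants per pool, nutrient solution, library kit and sequencer, and the label of 48 h is read as hours after withdrawal (the protocol text can also be read as 48 h after nitrate return).

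A gene was kept where 3 or more libraries of the tissue reached 1 TPM, log2(TPM + 1) was taken, and limma 3.58.1 (R 4.3.3) was fitted with 1 coefficient per time point, an empirical Bayes trend and two-sided tests, with Benjamini-Hochberg adjustment over all genes tested. Tissue differences were fitted over all 36 libraries. p-values measure the spread between pools of plants, taken over all time points in the fit. The fits were tested on simulated data with 200 changed genes per tissue. The alternatives tried changed the pseudocount (0.1 or 5), the filter (none, or a mean level of 5 TPM or more), the scaling (median of ratios, or quantile normalization) and the model (a replicate block, only the groups compared, a robust prior or no fold limit), and left out each replicate in turn.

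Named genes are AMT1.3, the members of the lists (with values for the other ammonium transporters and for members called in any contrast), and in each tissue the 3 network genes with the highest and the 3 with the lowest r and the closest gene of all. The gene and all lists were chosen with earlier results of these data known, and the promoter factors come from the study's network table. Motifs were searched on both strands. Gene positions are from RefSeq (NAM-5.0). Python 3.11.15 with pandas 2.3.3 and matplotlib 3.10.9 was used for summaries and plots.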

Additional observations from a re-analysis of the deposited data

Results flagged for a closer look

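The change of AMT1.3 from 0 h to 3 h differed between the tissues, with a leaf change minus root change of -2.10 on the log2 scale by a test of the difference itself. The mean level at 3 h and at 0 h was 0.766 and 8.14 TPM in leaf, and 28.5 and 34.4 TPM in root. The change between 3 h and 24 h also differed, by 2.22, in a contrast chosen after the values were seen, with means at 24 h and at 3 h of 2.52 and 0.766 TPM in leaf and of 12.1 and 28.5 TPM in root. With 3 libraries per group, single libraries were not screened as outliers.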

How the results depend on the processing

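Of 24 results on AMT1.3, 9 kept their direction and side of the threshold under every alternative run, among them the lower leaf level at 3 h, the lower root level at 24 h and the tissue difference between 3 h and 24 h, and of 417 alternative values 383 did so. A pseudocount of 5 ended the leaf calls at 0.5 h (-0.77), 24 h (-0.81) and 24.5 h (-0.86) against 0 h and the tissue difference at 3 h (-0.95), and turned the uncalled tissue difference at 24.5 h to 0.19. The leaf change between 3 h and 24 h became a call with no fold limit (0.97), a pseudocount of 0.1 (1.56), median-of-ratios scaling (1.01) and quantile normalization (1.13), and the leaf change at 48 h against 0 h did so with no fold limit (-0.91), a pseudocount of 0.1 (-1.06), median-of-ratios scaling (-1.14) and quantile normalization (-1.11). The uncalled tissue difference at 24 h turned to -0.096 (pseudocount of 0.1), -0.093 (median-of-ratios scaling) and -0.027 (quantile normalization). Fitting only the 6 libraries compared ended the call of root 48 h against 24 h (1.49), where no assimilation gene was called either. Over all root genes, the lowest count under the processing alternatives in this comparison was 0 higher and 0 lower. In the main fit it was 164 higher and 95 lower, so the loss was not particular to these genes. The cause was not tested. A mean of at least 5 TPM removed AMT1.3 in leaf and from the joint fit, so that alternative gave no value there.

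With each replicate left out in turn, results that changed side or sign ranged as follows. Leaf 24 h against 3 h ranged over 0.78 to 1.07, leaf 24.5 h against 24 h over -0.38 to 0.10 and leaf 48 h against 0 h over -1.07 to -0.78. Root 24 h against 3 h ranged over -1.57 to -1.05, root 24.5 h against 0 h over -1.40 to -0.99, root 48 h against 0 h over -0.19 to 0.30 and root 48 h against 24 h over 1.29 to 1.81. The tissue difference ranged over -0.074 to 0.45 at 24 h and over -1.21 to -0.71 at 48 h, and the root change after nitrate return minus that after withdrawal over 0.84 to 1.36. Counts of list members without each replicate were added after the data were seen.

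Replicate numbers were not treated as pairing the samples. Over 22 pairs of groups, correlations of same-numbered deviations ran from -0.35 to 0.23, and no pair of groups had all of them over 0.1. The highest value was that of leaf and root 48 h replicate 2. A rule that asks this of every replicate cannot exclude pairing of single pools. The fit over both tissues treated leaf and root libraries as independent. Adding a replicate block left all 24 AMT1.3 calls as they were, for example -2.36 for leaf 3 h against 0 h (adjusted p = 1.21e-05, limma). Low leaf levels, 3 pools per group and the absence of plants kept on nitrate limit these results.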
